A study of Mus musculus with 8 samples.

Results

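The genes of the hair shaft and of the inner root sheath were examined in the cheek skin of 8 mice injected with BNP, 4 of the genotype TBX20fl/fl;K14-Cre and 4 TBX20fl/fl controls. The list held 30 genes, chosen by name: type I and type II keratins of the inner root sheath, the companion layer keratin, type I and type II hair keratins, and 5 non-keratin genes of the same layers. Of these, 28 had a row among the 18901 genes of the deposited table. Krt74 and Krt85 had none and were not analysed here. In both genotypes exons 2 and 3 of Tbx20 are flanked by loxP sites, and in TBX20fl/fl;K14-Cre mice the keratin 14 promoter drives the Cre recombinase that removes them. That promoter is active in the basal layer of the epidermis and in the outer root sheath, so the deletion was confined by design to keratinocytes, while RNA came from the whole cheek tissue. All mice were 7-week-old females whose cheeks had been shaved on the day before, and all received 10 µg of BNP (brain natriuretic peptide, a pruritogen), so no uninjected skin enters the comparison. Behaviour was recorded for 30 min, and tissue was taken 5 h after the recording. The mice are called Cre mouse 1 to 4 and fl/fl mouse 1 to 4, by the number in their deposited labels.

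A hair is built by keratinocytes that leave the matrix of the hair bulb and harden in concentric layers. The hair shaft, with its medulla, cortex and cuticle, is filled with hair keratins, and it is moulded by the inner root sheath, which has its own keratins and is shed before the shaft leaves the skin. Each filament needs a type I (acidic) and a type II (basic) partner. These genes are active in growing follicles, in the phase called anagen, and are largely silent in resting follicles.

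The type I members lie together on chromosome 11 and the type II members on chromosome 15 (GRCm38). RefSeq promoters (GRCm38.p6) were matched for 21 of the 28 members, and the 250 bases before the start of 4 of them are shown, because the results turn on the difference between the inner root sheath keratins (Krt71 and Krt25) and hair keratins (Krt31 and Krt32). They are chr15:101743098-101743347 for Krt71, chr11:99322952-99323201 for Krt25, chr11:100050552-100050801 for Krt31 and chr11:100088270-100088519 for Krt32, all on the minus strand and written 5′ to 3′ along the gene. Capitals mark a pair of motifs. The letters TATAAA are the element near the start of many strongly expressed genes at which the transcription machinery assembles. The letters CTTTGA are the core that LEF1 and related factors are known to bind.
Krt71: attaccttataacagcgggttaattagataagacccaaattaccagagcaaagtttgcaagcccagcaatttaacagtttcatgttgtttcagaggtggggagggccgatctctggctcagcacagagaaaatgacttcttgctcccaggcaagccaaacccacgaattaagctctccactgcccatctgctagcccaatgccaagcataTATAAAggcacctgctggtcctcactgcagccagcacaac
Krt25: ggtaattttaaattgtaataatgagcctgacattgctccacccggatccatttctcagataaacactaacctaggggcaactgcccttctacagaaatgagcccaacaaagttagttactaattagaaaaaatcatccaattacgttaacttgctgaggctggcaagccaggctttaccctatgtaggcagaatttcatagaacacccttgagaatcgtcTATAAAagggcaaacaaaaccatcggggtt
Krt31: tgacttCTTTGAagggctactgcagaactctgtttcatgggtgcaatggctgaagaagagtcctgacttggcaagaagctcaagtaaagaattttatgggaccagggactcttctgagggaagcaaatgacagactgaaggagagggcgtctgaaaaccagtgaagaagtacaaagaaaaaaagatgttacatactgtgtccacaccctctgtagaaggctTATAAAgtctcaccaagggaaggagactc
Krt32: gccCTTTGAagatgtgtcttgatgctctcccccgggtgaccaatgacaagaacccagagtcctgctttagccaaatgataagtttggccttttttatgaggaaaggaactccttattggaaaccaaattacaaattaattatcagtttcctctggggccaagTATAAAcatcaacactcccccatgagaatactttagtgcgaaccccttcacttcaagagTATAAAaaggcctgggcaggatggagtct
In the window from 250 bases before to 50 bases after the start, TATAAA on either strand was found in 15 of the 21 genes, against 13.6% of 32851 mouse promoters. All 7 inner root sheath keratins held it, as did 6 of 9 hair keratins. TATAAA on the gene strand, starting 20 to 40 bases before the start, was found in 10 of the 21 genes, against 1.99% of all promoters. CTTTGA on either strand, which shares no letters with a TATAAA match shown here, was found in 6 of the 21, against 16.0% of all promoters. In 4 type I hair keratins, Krt31, Krt32, Krt33b and Krt34, it started 240 to 247 bases before the start. Krt34 held a further match, at 133 bases before the start. The other matches lay near the start, 18 bases before it in the hair keratin Krt39, and 21 bases before it and 14 bases past it in the inner root sheath keratin Krt28. CCAAT was found in 11 of the 21, against 37.4%.

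The deposited counts summed to 16056282 to 19880654 per mouse. At these depths 3 counts, taken as an approximate upper limit for an observed count of 0, correspond to 0.151 to 0.187 CPM (counts scaled to library size), counting error only. Tbx20 had 0 to 2 counts in Cre mice and 0 to 3 in fl/fl mice, so the deletion was not detectable in whole tissue at this depth. The keratinocyte keratins Krt14 and Krt5 were abundant in every mouse, with at least 1075.08 and 388.68 FPKM (fragments scaled to transcript length and library size). One library stood apart over all genes: the ranks of fl/fl mouse 2 had a median Spearman correlation with the other mice of 0.949, against 0.973 to 0.987 in the others. Counts deviated with transcript length in all libraries over 13284 genes, with a Spearman correlation of -0.782 in fl/fl mouse 2, -0.354 in fl/fl mouse 3 and 0.262 to 0.623 in the other 6.

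All 28 hair shaft and inner root sheath genes except Krt33b, Krt34 and Krt81, which had 0 counts in fl/fl mouse 1, had counts in every mouse. Their levels differed more between mice of 1 genotype than between the genotypes. Cre mouse 2 was the highest of the 8 mice for 26 of the 28 members, and such a rank was held by 21.0% of the 15969 genes whose FPKM averaged 0.1 or more. In 22 of the 28 members it was over 3-fold above every other mouse, against 1.17% of all genes. The FPKM of the members summed to 2105.09 in Cre mouse 2, against 59.37, 325.71 and 86.62 in Cre mice 1, 3 and 4 and 30.06, 177.79, 195.8 and 46.16 in fl/fl mice 1 to 4. Cre mouse 3 came next in 18 members, and fl/fl mouse 1 was the lowest in 21, ranks that were not counted over all genes. The FPKM of the genotypes overlapped for each of the 28 members, while 5.45% of genes were higher in Cre mice without overlap and 1.92% lower. In bulk tissue, more cells of a type and more RNA per cell cannot be told apart.

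**Figure D1:**
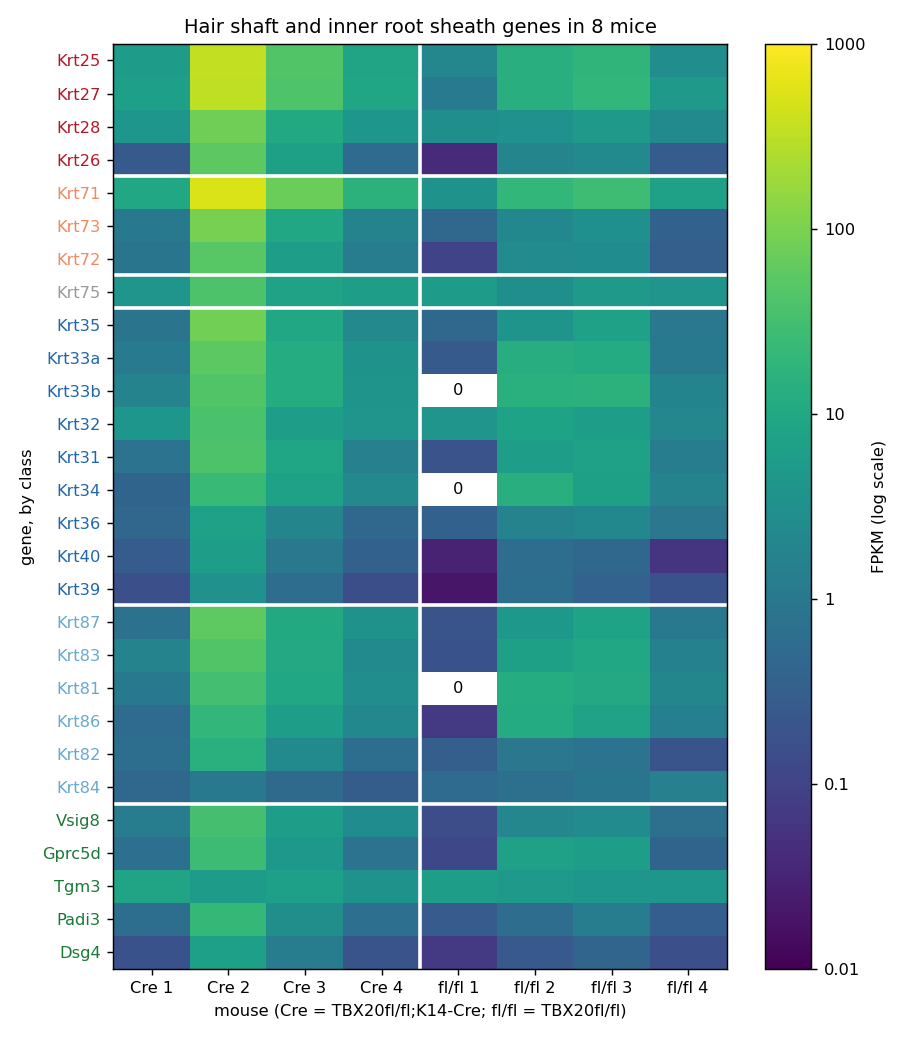
FPKM (colour, log scale) of the 28 measured members (rows, by class) in each of the 8 mice (columns); white cells marked 0 are values of 0. Cre mouse 2 is the brightest column for 26 of 28 genes, and fl/fl mouse 1 holds the lowest values, with 3 genes at 0.

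Among type I keratins of the inner root sheath, Krt25 is a main partner in the filaments of all its layers. Its FPKM was 5.61, 354.58, 43.61 and 8.44 in Cre mice 1 to 4 and 2.04, 14.14, 18.54 and 2.85 in fl/fl mice 1 to 4. Krt27 followed the same order of mice within each genotype, with 6.58, 333.52, 41.95 and 8.89 FPKM in Cre mice and 1.16, 14.57, 20.38 and 5.08 in fl/fl mice. In both genes Cre mouse 2 and Cre mouse 3 lay above every fl/fl mouse, while Cre mice 1 and 4 lay inside the range of the fl/fl mice. Krt28, a further type I partner, ran from 4.26, 80.77, 10.9 and 4.28 FPKM in Cre mice to 3.09, 3.39, 4.79 and 2.38 in fl/fl mice. Its fl/fl values were close together, and Cre mice 1 and 4 lay just under the highest of them. Krt26 was lower, with 0.26 to 54.85 FPKM in Cre mice and 0.04 to 2.32 in fl/fl mice.

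The type II partners showed a similar profile across mice, although the lowest mouse was fl/fl mouse 4 for Krt73 and fl/fl mouse 1 for Krt71 and Krt72. Krt71, in which mutations give curly or absent coats in several mammals, was the most abundant member, with 10.02, 530.35, 76.9 and 16.67 FPKM in Cre mice and 3.75, 20.55, 27.92 and 7.22 in fl/fl mice. Krt73, a keratin of the sheath cuticle, had 1.07, 92.79, 10.05 and 1.73 FPKM in Cre mice and 0.47, 2.17, 3.22 and 0.35 in fl/fl mice. Krt72, also of the cuticle, ranged from 0.87 to 50.34 and from 0.1 to 2.66. In all 7 inner root sheath keratins the value of Cre mouse 2 was 23.7 to 59.8 times the mean of the fl/fl mice, and that of Cre mouse 3 was 3.19 to 6.47 times that mean. The largest ratio in Cre mouse 2 was that of Krt73, and the smallest was that of Krt28.

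Krt75, the type II keratin of the companion layer, which lies between the inner and outer root sheaths, varied less outside Cre mouse 2. It had 4.01, 40.66, 7.51 and 6.39 FPKM in Cre mice and 5.82, 3.14, 4.88 and 4.03 in fl/fl mice. Here fl/fl mouse 1, the lowest mouse for most members, was the highest of its genotype.

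Hair keratins fill the shaft. Krt35, a type I keratin made early in the matrix and lower cortex, had the highest mean over the 8 mice through Cre mouse 2, which held 77.2% of its summed FPKM. It had 0.85, 86.67, 9.79 and 2.3 FPKM in Cre mice and 0.46, 3.83, 7.41 and 1.01 in fl/fl mice. In the fl/fl mice its mean of 3.18 ± 3.18 FPKM (SD, n = 4) was under those of Krt33b (8.22 ± 8.50) and Krt33a (6.55 ± 6.81), within the spread between mice. The cortical type I keratin Krt33a had 1.21, 55.84, 12.33 and 3.51 FPKM in Cre mice and 0.26, 12.78, 12.1 and 1.06 in fl/fl mice. Cre mouse 3 here lay between the highest fl/fl mice, not above them. Its close relative Krt33b had 1.74, 43.21, 12.55 and 3.85 FPKM in Cre mice and 0, 14.77, 16.29 and 1.81 in fl/fl mice, so that fl/fl mice 2 and 3 were above Cre mouse 3. Krt87, a type II hair keratin, had 0.75, 56.9, 10.66 and 3.68 FPKM in Cre mice and 0.2, 4.57, 7.92 and 1.04 in fl/fl mice. Cre mouse 3 was above every fl/fl mouse in all 7 inner root sheath keratins and in 6 of the 15 hair keratins. The share of all genes for which this held was not determined, so how unusual these counts are is not known.

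The other hair keratins spread widely in Cre mouse 2. Its value was 21.2 times the fl/fl mean for Krt40, a late keratin of the cuticle, 25.8 times for Krt82, of the same layer, and 27.3 times for Krt35. It was 3.90 times for Krt86, 4.24 times for Krt34, 5.22 times for Krt81, 5.26 times for Krt33b, 5.75 times for Krt36 and 7.44 times for Krt32. Values between these were 8.53 for Krt33a, 9.48 for Krt83, 10.7 for Krt31, 11.2 for Krt39 and 16.6 for Krt87. In 10 of the 15 hair keratins Cre mouse 2 was over 3-fold above every other mouse, against all 7 of the inner root sheath keratins. Krt34 and Krt81, like Krt33b, had 0 counts in fl/fl mouse 1, where 3 counts are 0.153 CPM.

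Krt84 departed from the other members. This type II hair keratin, known from the dorsal tongue and nail as well as hair, had 0.47, 1.04, 0.54 and 0.3 FPKM in Cre mice and 0.55, 0.71, 0.86 and 1.5 in fl/fl mice. It rested on 15.07 to 72.3 counts per mouse. Without Cre mouse 2 its values in Cre mice lay under all those in fl/fl mice, as was so for 6.08% of genes, and it was the only member without overlap then.

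The non-keratin members split in 2. Vsig8, an immunoglobulin-domain protein of the shaft cuticle and inner root sheath, had 1.33, 33.88, 6.1 and 2.76 FPKM in Cre mice and 0.15, 2.1, 2.57 and 0.69 in fl/fl mice. Padi3, which converts arginine to citrulline in trichohyalin and other structural proteins, had 0.65, 21.46, 2.99 and 0.67 FPKM in Cre mice and 0.27, 0.62, 1.27 and 0.31 in fl/fl mice. In both genes Cre mice 2 and 3 were the highest of the 8. Dsg4, a desmosomal cadherin of the shaft, was 28.3 times and Gprc5d, an orphan receptor of hard keratinised tissue, 7.46 times the fl/fl mean in Cre mouse 2. Tgm3, a transglutaminase that cross-links hair proteins and also the cornified envelope of the epidermis, ranged from 3.52 to 8.41 FPKM in Cre mice and from 4.24 to 6.25 in fl/fl mice, and it was highest in Cre mouse 1.

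**Figure D2:**
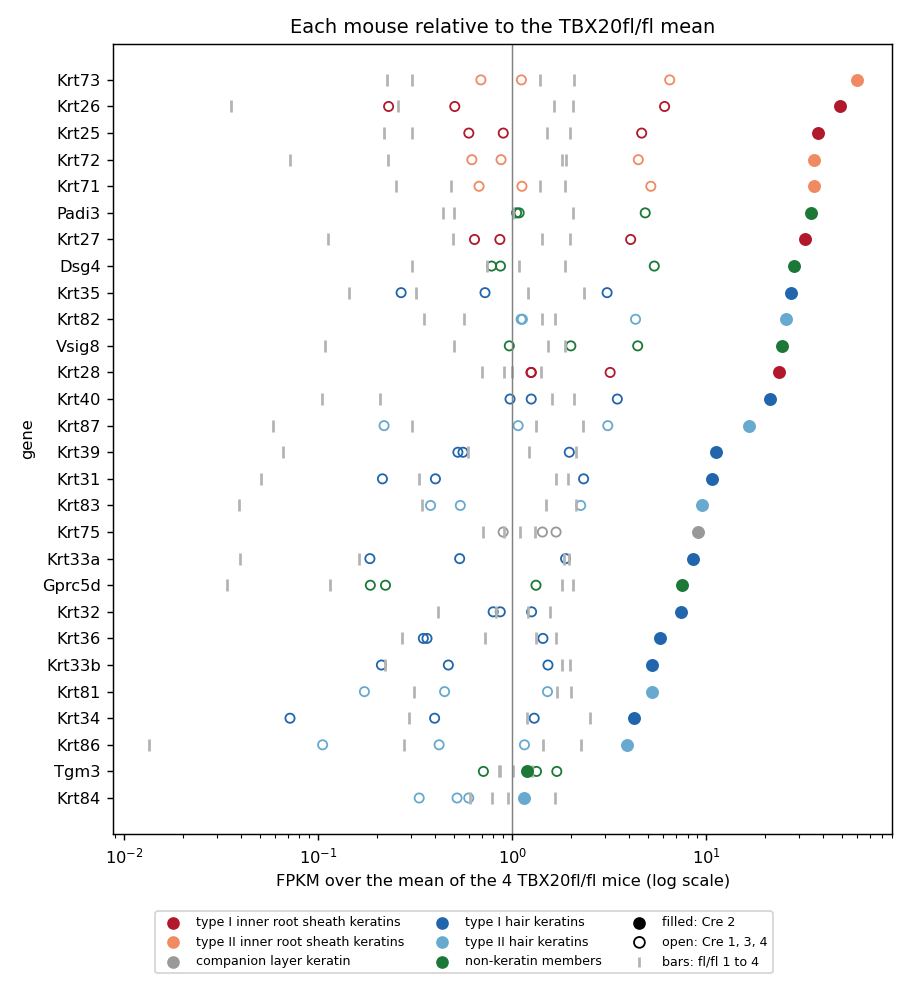
FPKM of each mouse divided by the mean of the 4 fl/fl mice (x axis, log scale) for the 28 members, sorted by Cre mouse 2; filled points are Cre mouse 2, open points the other Cre mice, grey bars the fl/fl mice, and 3 values of 0 are not drawn. Inner root sheath keratins, with 23.7 to 59.8, lie in the upper part of the order, interleaved with Padi3, Dsg4, Krt35, Krt82 and Vsig8. Krt86, Krt34, Tgm3 and Krt84 hold the lower end.

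Summed by class, the inner root sheath keratins had 28.67, 1497.2, 196.55 and 41.81 FPKM in Cre mice and 10.65, 59.22, 79.83 and 18.49 in fl/fl mice. The 15 hair keratins had 15.46, 472.94, 100 and 30.48 in Cre mice and 6.73, 100.14, 96.18 and 17.75 in fl/fl mice. Inner root sheath keratins outweighed hair keratins in every Cre mouse, with ratios of 1.85, 3.17, 1.97 and 1.37. The ratios in fl/fl mice were 1.58, 0.591, 0.830 and 1.04. The genotypes overlapped in this ratio through fl/fl mouse 1, which had the smallest sums of both classes. The lowest ratios, in fl/fl mice 2 and 3, came from the libraries whose counts correlated negatively with transcript length (-0.782 and -0.354). The ratios were not adjusted for length, and its part was not tested. The sums of type I and type II partners moved together: their ratio in the inner root sheath stayed between 1.11 and 1.47 in all 8 mice while the sums ran over more than 100-fold. In the hair keratins it was 1.31 to 1.96 in 7 mice and 4.10 in fl/fl mouse 1, where 3 members were at 0.

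**Figure D3:**
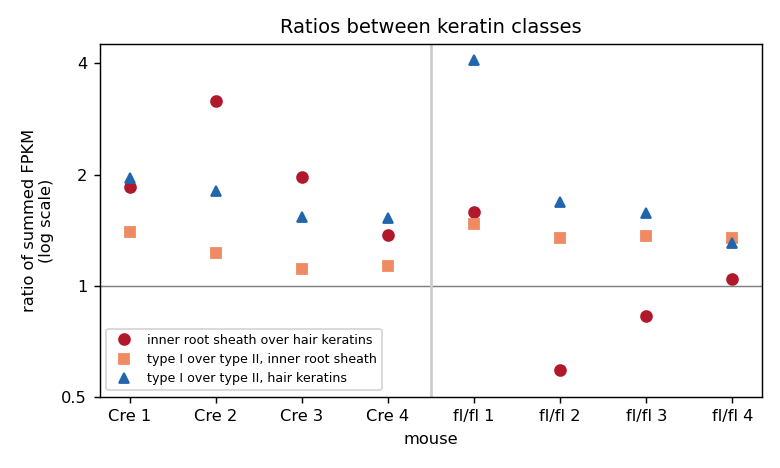
Ratio of summed FPKM (y axis, log scale) between keratin classes in each of the 8 mice (x axis; points are single mice). The ratio of inner root sheath to hair keratins lies at 1.37 to 3.17 in Cre mice and at 0.591 to 1.58 in fl/fl mice, and the type I to type II ratio of the inner root sheath stays between 1.11 and 1.47.

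No member passed the test between the genotypes. By edgeR (quasi-likelihood test, Benjamini-Hochberg adjustment over 17124 genes), the smallest adjusted p of a member was 0.498, and no gene (0.0%) was under 0.05. Before adjustment, 10 of the 28 members (35.7%) had a p under 0.05 and were higher in Cre mice, against 419 of all genes (2.45%). None was lower, against 1012 of all genes (5.91%). The 10 were Krt25, Krt27, Krt28, Krt71, Krt73, Krt75, Krt82, Vsig8, Padi3 and Dsg4. The smallest unadjusted p values were those of Krt28, with a log2 fold change of 2.69 (SE 0.94, 4 mice per genotype, edgeR adjusted p = 0.498), Padi3, with 3.19 (SE 1.16, edgeR adjusted p = 0.498), and Krt73, with 3.87 (SE 1.43, edgeR adjusted p = 0.498). Krt84 was the only member with a negative value, -0.76 (SE 0.43, edgeR adjusted p = 0.499). The median log2 fold change of the members was 1.86 (0.03 over all genes tested), with 3.17 in the inner root sheath keratins and 1.18 in the hair keratins. By limma on log2(FPKM + 1) over 15969 genes, 0 members had a p under 0.05 in either direction, against 3.16% of all genes higher and 3.39% lower. With the replicate number as a block, explained further on, limma gave 13 members higher (4.73% of all genes). DESeq2 gave 12 members an unadjusted p under 0.05 and a higher value (3.13% of all genes), and none an adjusted p under 0.05 (0.0609% of all genes). These are 12 of 27 members, since DESeq2 gave no p for Krt28.

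In edgeR without the block, the count of 10 rested on Cre mouse 2. Without it, 0 of the 28 members had a p under 0.05 and were higher (1.41% of all genes), and 1, Krt84, was lower (4.06% of all genes), at a log2 fold change of -1.18 (SE 0.39, edgeR adjusted p = 0.569). The median over the members was then 0.25, and 11 members, 10 hair keratins and Gprc5d, had changed sign. The 7 inner root sheath keratins kept positive values, with a median of 0.78, and the hair keratins had a median of -0.29. Among the hair keratins 4 stayed positive, with 0.89 for Krt82, 0.73 for Krt40, 0.32 for Krt87 and 0.22 for Krt35. Without fl/fl mouse 1 or fl/fl mouse 4, 1 member (Krt28) was higher at a p under 0.05 (3.21% and 3.69% of all genes), while the median log2 fold change of the members was 1.71 and 1.66. Without fl/fl mouse 3 there were 6 (1.43% of all genes), with a median of 2.36.

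Deviations of same-numbered mice from the group means correlated over all genes at only 0.108 to 0.323, as described in the methods. A pair of unlike number, Cre mouse 4 with fl/fl mouse 1, reached 0.320. The pairing is thus uncertain, and each Cre mouse was also compared with the fl/fl mouse of its number. The FPKM was higher in the Cre mouse in all 4 pairs for 19 of the 28 members, against 22.2% of all genes, and for none was it lower in all 4 (10.2%). This held for all 7 inner root sheath keratins and for 9 of the 15 hair keratins. The summed FPKM of the inner root sheath keratins was 2.69, 25.3, 2.46 and 2.26 times higher in Cre mice 1 to 4 than in the fl/fl mice of the same number. For the hair keratins these ratios were 2.30, 4.72, 1.04 and 1.72. The sums of the inner root sheath keratins are carried mostly by Krt71, Krt25 and Krt27. Over the pairs numbered 1, 3 and 4, single inner root sheath keratins were 1.38 to 8.70 times higher in the Cre mouse, while single hair keratins had ratios from 0.20 to 9.72, to both sides of 1. The latter range leaves out the pair numbered 1 for Krt33b, Krt34 and Krt81, where fl/fl mouse 1 was at 0. The highest ratios of the inner root sheath keratins, those of Krt72 (8.70) and Krt26 (6.50) in the pair numbered 1, rest on 4 and 2 counts in fl/fl mouse 1.

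With the number as a block in edgeR, 17 members had an unadjusted p under 0.05 and were higher (3.52% of all genes), 7 of them inner root sheath keratins, at an adjusted p of 0.405 or more. None was lower (6.54% of all genes). Without both mice numbered 2 and with the block, a fit chosen after the data had been seen, 14 members were higher at an unadjusted p under 0.05 (5.16% of all genes) and Krt84 was lower (6.47% of all genes). The 14 held all 7 inner root sheath keratins, Krt35, Krt40, Krt82, Krt87, Vsig8, Padi3 and Dsg4. Krt71 rose, with a log2 fold change of 1.33 (SE 0.11, edgeR adjusted p = 0.0457), and so did Krt25, with 1.36 (SE 0.12, edgeR adjusted p = 0.0492), as 2 of the 5 genes (0.0296%) under an adjusted p of 0.05 in this fit. Without the block these 6 mice gave 0 members higher (4.17% of all genes) and Krt84 lower (6.37% of all genes). The labels do not say what the numbers stand for, and 2 mice with the same number are different animals.

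**Figure D4:**
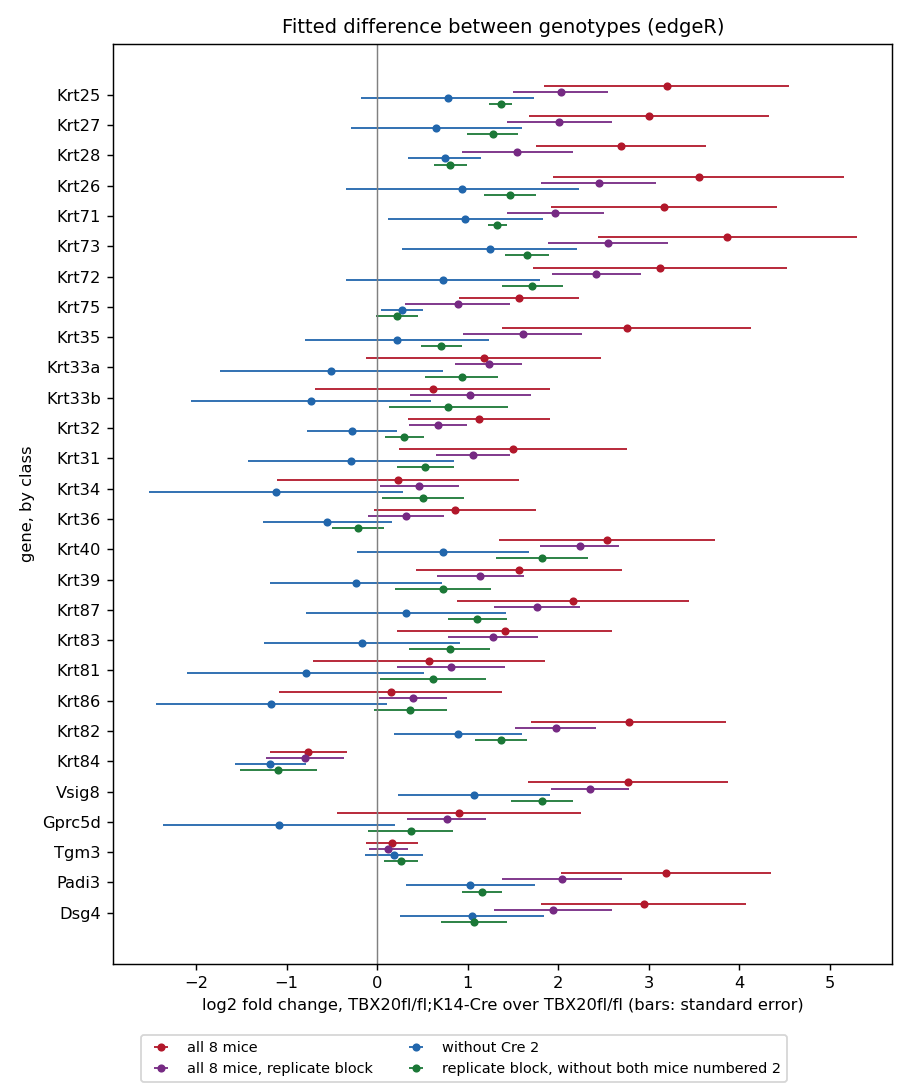
Log2 fold change between genotypes (x axis, Cre over fl/fl mice; bars are standard errors) of the 28 members in 4 edgeR fits. With all mice most values lie above 0 with wide bars, when Cre mouse 2 is left out, 11 of the 15 hair keratins lie below 0 and 4 (Krt82, Krt40, Krt87 and Krt35) above it, and with the block and without both mice numbered 2 the inner root sheath keratins lie at 0.81 to 1.72 with narrow bars.

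Other genes of the growing follicle had the same mouse on top. Of 28 regulators of the follicle, 20 were highest in Cre mouse 2 (21.0% of all genes), and 12 had an unadjusted edgeR p under 0.05 and were higher in Cre mice (2.45% of all genes), none with an adjusted p under 0.498. Without Cre mouse 2 there were 2 (1.41% of all genes), and with the block there were 4 (3.52% of all genes). Of the 28, 7 were higher in the Cre mouse in all 4 pairs (22.2% of all genes). Lef1, a transcription factor of matrix and precortex, had 0.51, 4.24, 1.18 and 1.05 FPKM in Cre mice and 0.52, 0.22, 0.51 and 0.25 in fl/fl mice. Its values in Cre mice 2, 3 and 4 were above every fl/fl mouse. Of 15 other genes of the shaft and root sheaths, 10 were highest in Cre mouse 2 (21.0% of all genes), and 3 were higher at an unadjusted p under 0.05 (2.45% of all genes). Without Cre mouse 2 there were 0 (1.41% of all genes), and 4 of the 15 had a negative log2 fold change. Tchh, which encodes trichohyalin, the matrix protein of the inner root sheath and a substrate of Padi3, had 6.23, 200.86, 31.17 and 10.11 FPKM in Cre mice and 3.34, 13.23, 11.71 and 4.71 in fl/fl mice. Among 53 keratin-associated protein genes, which cross-link hair keratins in the cortex and cuticle, 50 were highest in Cre mouse 2 (21.0% of all genes). By edgeR, 4 of the 49 tested were higher at an unadjusted p under 0.05 (2.45% of all genes), and 10 with the block (3.52% of all genes) or with the trend over transcript length as an offset in the fit (3.22% of all genes). Without Cre mouse 2 the log2 fold change was negative in 34 of 49, with a median of -0.73. With all mice it was positive in 37 of 49 genes (median 0.72), and with the length offset in 48 of 49 (median 1.41). They were higher in the Cre mouse in all 4 pairs for 11 of 53 (22.2% of all genes). Their summed FPKM was 2638.74 in Cre mouse 2, 2.40 times that of the next mouse, fl/fl mouse 2, with 1099.43. The inner root sheath keratins in Cre mouse 2 were 7.62 times, and the hair keratins 4.72 times, those of the next mouse. These sums were not adjusted for transcript length, with which the counts of fl/fl mouse 2 fell most (Spearman correlation -0.782). The part of length was not tested.

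Markers of other cells moved with Cre mouse 2 unequally, and their part in the result was not tested. Melanocyte genes summed to 81.56 FPKM in it and to 14.69 to 28.31 in the other 7 mice, with 7 of 9 genes highest there. Cell division genes summed to 330.67 against 156.76 to 219.18, with 13 of 14 highest there. The 10 keratins of the interfollicular epidermis summed to 4528.96 FPKM in Cre mouse 2, inside the 4167.55 to 6084.01 of the others, and none was highest there. Of 8 sebaceous gland and 8 adipocyte markers, none was highest in Cre mouse 2. The summed neutrophil markers were 219.69 to 424.22 FPKM in Cre mice and 444.28 to 1138.38 in fl/fl mice, without overlap. Single markers overlapped between the genotypes except S100a9, Ly6g and Il1r2 (1.92% of all genes), which are named after their values were seen. All 8 had a negative log2 fold change, 5 of them at an unadjusted edgeR p under 0.05 (5.91% of all genes) and none at an adjusted p under 0.498. The 8 skeletal muscle markers summed to 7984.27 FPKM in it, under the 10484.3 to 13958.7 of the other mice. Dermal papilla markers summed to 33.77 in Cre mouse 2, 19.23 of which was Crabp1, against 25.03 to 48.39 in the others. Of these 8 markers 4 were highest in Cre mouse 2, and 2, Corin and Alx4, were there over 3-fold above every other mouse (1.17% of all genes). The 4 keratins of the outer root sheath and of wounds summed to 491.23 in it, 404.52 of which was Krt17, and to 1038.07 in fl/fl mouse 4. Of these, Krt6a, Krt6b and Krt16 had a negative log2 fold change at an unadjusted edgeR p under 0.05 (5.91% of all genes), with an adjusted p of 0.498, and fl/fl mouse 4 was the highest mouse for each.

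**Figure D5:**
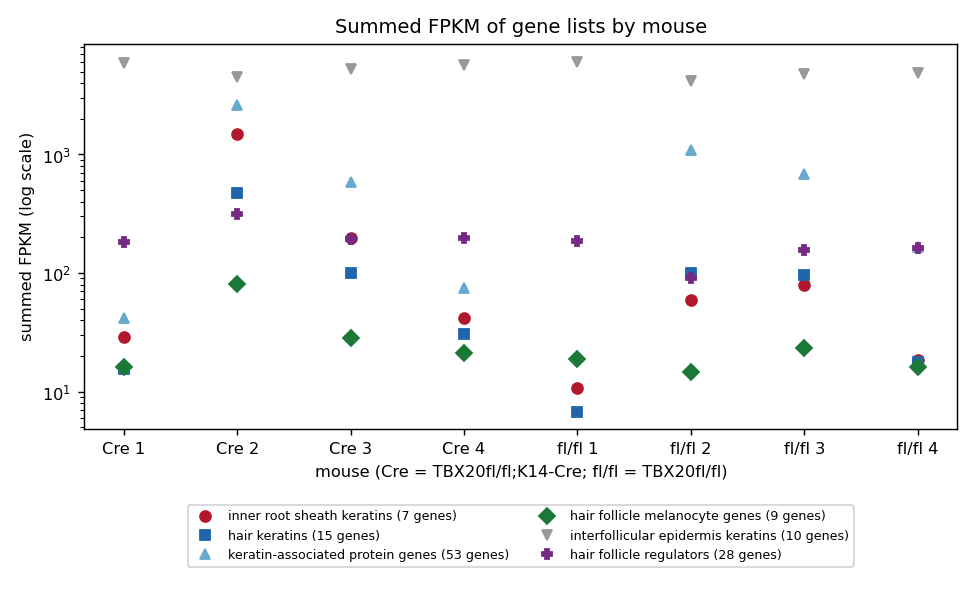
Summed FPKM (y axis, log scale) of 6 gene lists in each of the 8 mice (x axis; points are single mice). The keratins of the inner root sheath and of hair peak in Cre mouse 2 at 1497.2 and 472.94, while those of the interfollicular epidermis stay between 4167.55 and 6084.01.

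Some members cannot be fully separated by reads of 50 bases. Stretches of 50 bases shared with another annotated gene made up 43.3% of the transcript sequence of Krt86, 37.7% of Krt81, 36.9% of Krt87, 33.1% of Krt34, 28.1% of Krt31, 24.2% of Krt33b, 22.1% of Krt83 and 17.8% of Krt33a. The main partner was a hair keratin of the same type, except for Krt87, which had 443 stretches in common with the annotated gene Gm49425 and 263 with Krt81. Krt81 and Krt86 had 682 stretches in common, and Krt31 and Krt34 had 318. Krt27 and Krt25 shared 11.1% and 10.9% of theirs, mostly with each other, and the remaining members at most 2.70%. Counts above 0 were not whole numbers in 76.0% of member values and in 69.0% over all genes, so fractional counts are not particular to the members. Through the shared sequence, values of those hair keratins are uncertain relative to each other. The inner root sheath keratins other than Krt25 and Krt27 are little affected.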

How the data were processed

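The authors sequenced 1 library per mouse, as single-end reads of 50 bases, from cheek tissue injected with BNP. They filtered the reads with SOAPnuke and aligned them with HISAT. For 18901 genes on GRCm38 the authors deposited an estimated count per gene (an expected count, not normalized) and FPKM values made with the Dr. Tom platform. The program behind the counts is not given in the sources used here. Another 16 per-sample columns (TPM and normalized counts), group means, and the fold changes with p-values of the authors' own comparisons were not used. The strand in the deposited table differs from GENCODE for 4 members (Krt32, Krt35, Krt36 and Padi3).

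Counts were rounded, the 17124 genes that reached 10 counts in all were kept, and the genotypes were compared with edgeR 4.0.16 (TMM, quasi-likelihood test, R 4.3.3) without covariates, with Benjamini-Hochberg adjustment over all genes. Standard errors are the fold change over the square root of F. FPKM was compared with limma 3.58.1 on log2(FPKM + 1) for the 15969 genes averaging 0.1 or more. DESeq2 1.42.0 was an alternative, as were other filters and scalings, a transcript length trend as an offset, the replicate block and leaving out each mouse. The code was tested on simulated counts. Summaries used Python with pandas 2.3.3.

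Same-numbered mice were taken as pairs because their deviations from the group means correlated at 0.323, 0.275, 0.176 and 0.108 in the 4 pairs. The numbers come only from the deposited labels. The pair numbered 4 was exceeded by 3 pairs of unlike number: Cre mouse 4 with fl/fl mouse 1 (0.320), Cre mouse 2 with fl/fl mouse 3 (0.139) and Cre mouse 3 with fl/fl mouse 4 (0.136).

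Values in every mouse are given for the 8 members with the highest mean FPKM, the 3 with the smallest edgeR p in each direction and the highest member of each class. A comparison by protein identity was planned but not made, and shared 50-base stretches of GENCODE transcripts were counted in its place. From other lists at most 4 genes are named, chosen by the smallest p, with some exceptions. Krt14 and Krt5 are given as keratinocyte keratins, and S100a9, Ly6g and Il1r2 were picked because their genotypes did not overlap. The members, lists and tests were chosen with earlier results of these data known.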

Additional observations from a re-analysis of the deposited data

Results flagged for a closer look

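In each genotype the highest and the lowest of the 4 mice was compared with its nearest neighbour, as a share of the whole range. Cre mouse 2 passed the critical value of Dixon's test in 17 of the 56 groups, at shares of 0.832 to 0.931, and no other mouse did in any gene. The rate of 1 in 20 groups by chance assumes normally distributed values. The comparison used FPKM without a log scale, where values are strongly skewed, so that rate does not apply here. The 17 genes also come from the same library, so they are not separate observations.

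The inner root sheath keratins flagged were Krt71, at 530.35 FPKM in Cre mouse 2 against 10.02 to 76.9 in the other Cre mice, Krt25 at 354.58 against 5.61 to 43.61, and Krt27 at 333.52 against 6.58 to 41.95. They also included Krt73 at 92.79 against 1.07 to 10.05, Krt28 at 80.77 against 4.26 to 10.9, Krt26 at 54.85 against 0.26 to 6.87, and Krt72 at 50.34 against 0.87 to 6.27. The companion layer keratin Krt75 stood at 40.66 against 4.01 to 7.51. Among hair keratins, Krt35 stood at 86.67 against 0.85 to 9.79, Krt32 at 37.13 against 3.98 to 6.28, Krt82 at 14.66 against 0.63 to 2.45, Krt40 at 6.1 against 0.28 to 1 and Krt39 at 3.41 against 0.16 to 0.6. Among the non-keratin members, Vsig8 stood at 33.88 against 1.33 to 6.1, Gprc5d at 26.52 against 0.66 to 4.71, Padi3 at 21.46 against 0.65 to 2.99 and Dsg4 at 6.5 against 0.18 to 1.24.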

How the results depend on the processing

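No member had an adjusted p under 0.05 in any alternative except Krt71 and Krt25, in the fit with the replicate block and without both mice numbered 2, and the members' adjusted p values started at 0.290 to 0.691 in the others. DESeq2 size factors, the looser and the stricter filter on low counts, DESeq2's test and the length offset kept the sign of all 28 members and the number higher at an unadjusted p under 0.05 within 1.5 times. The replicate block kept every sign and moved that number to 17 (3.52% of all genes), or to 18 with the length offset (4.16%). Leaving out each mouse moved it between 0 (without Cre mouse 2) and 14 (without Cre mouse 1 or Cre mouse 4, against 2.55% and 2.13% of all genes). It was 6 without fl/fl mouse 3 and 1, Krt28, without fl/fl mouse 1 or fl/fl mouse 4. The number lower lay between 0 and 1. By limma on FPKM the block gave 13 members higher (4.73%) and a pseudocount of 0.1 gave 1 (2.50%), and leaving out each mouse gave 0 to 9 higher (9 without Cre mouse 1, against 2.80% of all genes) and 0 to 1 lower (Krt84 without Cre mouse 2, against 3.15%). Genotypes without overlap were found for 0 to 2 members higher (Krt75 and Vsig8 without Cre mouse 1, against 10.1% of all genes, and Krt28 and Padi3 without fl/fl mouse 3, against 6.66%) and 0 to 1 lower. DESeq2 called 10 genes over the whole table and 17 without Cre mouse 2, none a member. The cause of these moves was not tested.

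A further 4 fits were chosen after seeing the data. Without Cre mouse 2 and with the length offset 1 member was higher (2.54% of all genes) and 1 lower (4.21%). Without both mice numbered 2 it was 0 (4.17%) and 1 (6.37%), and with DESeq2 without Cre mouse 2 also 0 (1.66%) and 1 (6.93%). With the block and without both mice numbered 2 it was 14 (5.16%) and 1 (6.47%), and 5 genes were called over the whole table. Log2 fold changes that changed sign were, with the length offset and without Cre mouse 2, Krt33a -0.11, Krt33b -0.30, Krt81 -0.47, Krt34 -0.63, Krt86 -0.88, Gprc5d -0.51, Krt36 -0.32 and Krt39 -0.35. Without both mice numbered 2 they were Krt33b -0.055, Krt86 -0.097, Gprc5d -0.22 and Krt36 -0.20, and with the block added Krt36 -0.21. With DESeq2 and without Cre mouse 2 they were Krt33a -0.55, Krt33b -0.78, Krt83 -0.21, Krt32 -0.32, Krt81 -0.84, Krt31 -0.34, Krt34 -1.19, Krt86 -1.23, Gprc5d -1.15, Krt36 -0.59 and Krt39 -0.33. Over the 8 fits that each leave out 1 mouse, members with a change of sign ranged as follows: Krt33a -0.51 to 1.96, Krt33b -0.73 to 1.28, Krt83 -0.17 to 1.93, Krt32 -0.28 to 1.61, Krt81 -0.79 to 1.40, Krt31 -0.29 to 2.08, Krt34 -1.12 to 1.54, Krt86 -1.17 to 1.21, Gprc5d -1.09 to 1.77, Tgm3 -0.041 to 0.36, Krt36 -0.55 to 1.21 and Krt39 -0.23 to 2.46. Depth limits the members with few counts in fl/fl mouse 1, where Krt33b, Krt34 and Krt81 had 0, and Krt39, Krt40, Krt26, Krt86, Gprc5d, Krt72, Dsg4 and Vsig8 had 1 to 5.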
